A study of Mus musculus with 6 samples.

Results

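Aminoacyl tRNA synthetases are the enzymes that join each amino acid to its transfer RNA, and 35 of their genes were followed here, 19 of the cytosolic class and 16 of the mitochondrial class, among 18193 genes measured. The genes were chosen from a list of symbols; symbols ending in 2 formed the mitochondrial class, and each gene was read from the 1 probe set whose log2 values averaged highest over the 6 arrays. Every listed gene was found in the array annotation. Measurements came from mouse uterine horns on 6 expression arrays, 3 labelled Oil and 3 labelled P4, the usual abbreviation of progesterone. The females were 8 weeks old, ovariectomized, of mixed background and of the genotype GATA2 f/f, so both groups had lost their ovaries and carried the floxed allele. The labels name no Cre, no dose and no time after treatment, and do not say whether the arrays came from separate animals. The p-values therefore measure the spread between these arrays, which may be technical.

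Protein synthesis in the cytosol and in mitochondria runs on separate sets of charged transfer RNA. The cytosolic synthetases serve the translation of nuclear genes, and several of them sit in a large multisynthetase complex. The mitochondrial synthetases are encoded in the nucleus as well, are imported into the organelle and serve the few proteins of the mitochondrial genome. Genes of cytosolic synthetases are known targets of ATF4, a transcription factor of the amino acid and endoplasmic reticulum stress responses, which binds elements with the core TGATGNAA. Progesterone is the hormone that prepares the uterus for implantation.

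The array medians ran from 117.3 to 122.9 intensity units, and log2 values of any pair of arrays correlated at 0.967 to 0.994. Array values are linear intensities; differences below are on the scale log2(intensity + 16), P4 minus oil, with the standard error (SE) of a limma fit over all genes, and the sum with 16 makes changes of dim genes look smaller. A gene was called when its Benjamini-Hochberg adjusted p in that fit was under 0.05. Levels of different genes are not set against each other, since probe sets differ in brightness. Over all genes 1106 were called higher and 1262 lower (1308 and 937 with array medians made equal, 1838 and 628 with arrays scaled to hybridisation controls, which moved the median of all genes from -0.01 to 0.10). Markers of the cells a uterine horn can hold were read on the same arrays. Among 7 epithelial markers 0 were called, and 3 were lower with the replicate block. Over all genes that block gave 9.29% higher and 11.6% lower. The summed intensity of the epithelial markers was 13495 to 15367 after oil and 8289 to 13681 after P4. Positive differences were seen in 2 of them, Cldn4 (0.31 ± 0.14, adjusted p 0.210) and Foxa2 (0.02 ± 0.15). Lum, of 6 stromal markers, was called lower (sums 37140 to 41987 and 32531 to 41377). Of the others 3 had positive differences, Col1a1 (0.57 ± 0.20), Col3a1 (0.36 ± 0.18) and Pdgfra (0.06 ± 0.10), and with the replicate block 2 were higher, Col1a1 (adjusted p 0.0247) and Col3a1 (0.0309). Cldn4, Foxa2, Col1a1, Col3a1, Pdgfra and Star were named after their values were seen. Tek, of 5 endothelial markers, was called lower (sums 4343 to 4734 and 3778 to 4237, without overlap), and 2 of the list were lower with the block. Of 6 smooth muscle, 5 macrophage and lymphocyte, 2 red cell and 6 granulocyte markers 0 were called. Summed granulocyte markers ran from 591 to 6244 after oil and from 635 to 9537 after P4, wide in both groups, with a positive median difference of 0.59. Of 4 ovarian markers Inha was called lower and the other 3 had positive differences, among them Star with all P4 arrays above all oil arrays (0.29 ± 0.09, adjusted p 0.0806). The ovarian list summed to 429 to 455 after oil and 399 to 444 after P4, while red cell sums were 150 to 174 and 147 to 164. Of the brightest markers in lists without a call, the epithelial Krt18 and Krt8 had log2 differences of -0.62 ± 0.19 (adjusted p 0.0673, and 0.0310 with the block) and -0.36 ± 0.25. The smooth muscle genes Acta2 and Tagln had -0.01 ± 0.06 and -0.10 ± 0.07, and the leukocyte genes Csf1r and Ptprc 0.07 ± 0.44 and 0.07 ± 0.56. The granulocyte genes S100a8 and S100a9 had 2.03 ± 1.82 and 1.90 ± 1.92, and the red cell genes Hba-a1 and Alas2 -0.14 ± 0.10 and 0.10 ± 0.12. Smooth muscle sums were 42124 to 42604 and 38534 to 45372, and those of macrophages and lymphocytes 1177 to 3105 and 908 to 3047. No marker was at 0. In whole tissue, fewer cells of a type and less RNA per cell cannot be told apart, and the part of cell composition in the results below was not tested. A fit with the granulocyte markers S100a8 and S100a9 as a covariate, chosen after seeing the data, also called 11 cytosolic genes. That fit holds no marker of epithelium, stroma or endothelium and cannot speak to those cells.

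Transcripts of 11 cytosolic synthetases were higher after P4, while 15 of the 16 mitochondrial ones were not called. Of the 19 cytosolic genes 11 rose and 0 fell, where 6.08% of all genes were called higher and 6.94% lower. Of the 16 mitochondrial genes 1 rose, Mars2, and 0 fell. At an unadjusted p under 0.05, limma gave 14 cytosolic genes higher and 1 lower, and 3 mitochondrial genes higher and 3 lower. The median log2 difference was 0.43 in the cytosolic class, -0.03 in the mitochondrial class and -0.01 over all genes. In 14 cytosolic genes all P4 arrays lay above all oil arrays and in 0 below; in the mitochondrial class the counts were 4 above and 3 below. Over all genes 14.3% lay apart above and 17.5% below, 31.8% in either direction, and 13.0% were called in either direction. With the replicate number as a block, 13 cytosolic genes were higher and 1 lower, and 2 mitochondrial genes higher and 1 lower (9.29% higher and 11.6% lower over all genes).

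**Figure D1:**
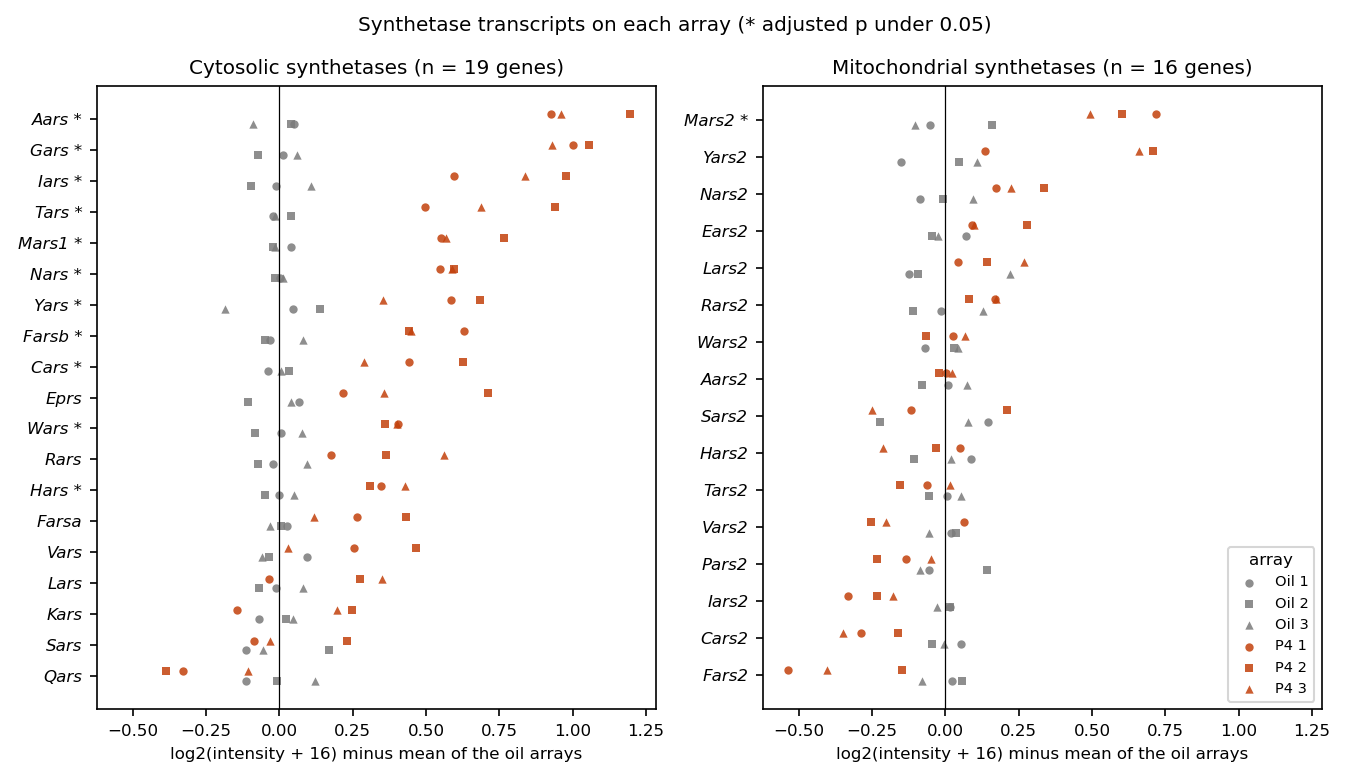
Each point is 1 array: the horizontal axis gives log2(intensity + 16) minus the mean of the 3 oil arrays, the rows are genes, grey is oil, orange is P4, and the marker shape is the replicate number. Orange points lie right of grey ones in 14 of 19 cytosolic genes, while mitochondrial genes lie on either side of 0; asterisks mark the 12 genes with an adjusted p under 0.05.

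Promoter stretches of Aars, Gars, Iars and Tars, the 4 largest increases of the class, are shown first because each holds the ATF4 element core. RefSeq promoters (GRCm38.p6, 250 bases before to 50 after the start) were at hand for 26 of the 35 genes. TGATGNAA was searched on both strands, so that TTNCATCA on the gene's strand also counts. It occurred in 5 of 12 cytosolic promoters, those of Aars, Gars, Iars, Tars and Yars, and in 0 of 14 mitochondrial ones, beside 4.51% of the 27025 genes in the table. All 5 of these genes are among the 7 called cytosolic genes with a promoter in the table, and 0 of the 5 cytosolic genes not called held the core. Stretches of these promoters follow, 5′ to 3′ on the gene's strand, with the core in capitals. For Aars (chr8:111033712-111033841, plus strand), Gars (chr6:55037871-55038000, plus) and Tars (chr15:11399659-11399788, minus) they are the 130 bases before the start. For Iars (chr13:49682126-49682155, plus), where the core lies after the start, it is 30 bases around it.
Aars: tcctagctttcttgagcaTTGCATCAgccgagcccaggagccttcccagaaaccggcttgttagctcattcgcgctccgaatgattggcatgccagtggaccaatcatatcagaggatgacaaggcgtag
Gars: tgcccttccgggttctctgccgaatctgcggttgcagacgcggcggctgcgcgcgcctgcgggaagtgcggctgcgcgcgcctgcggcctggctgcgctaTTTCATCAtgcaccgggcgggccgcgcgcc
Tars: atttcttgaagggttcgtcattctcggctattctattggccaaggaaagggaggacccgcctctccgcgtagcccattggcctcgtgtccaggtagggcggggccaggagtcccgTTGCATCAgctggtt
Iars: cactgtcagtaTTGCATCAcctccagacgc

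Counted from the first transcribed base as 1 and the base before it as -1, the core began at -112 in Aars, -30 in Gars, -15 in Tars, 8 in Iars and 4 in Yars. Aars held a further match at 10. The core read TTGCATCA in Aars, Tars and Iars, TTTCATCA in Gars and at the further match of Aars, and TGATGCAA in Yars. The E-box CACGTG, the site class of MYC and related factors and its own reverse complement, was in the promoters of Aars, Farsb, Iars and Tars, 4 of 12 cytosolic genes. Among mitochondrial promoters it was in that of Ears2, 1 of 14, and 8.09% of all genes in the table held it. In no member did the 2 motifs overlap. A match of letters is not evidence that a factor binds there, and binding was not measured on these arrays.

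Among the cytosolic genes outside the multisynthetase complex, 9 of 12 rose, beside 6.08% of all genes, with a median log2 difference of 0.48. Aars, the alanyl synthetase, had intensities of 429, 426 and 388 on the oil arrays and 801, 970 and 821 on the P4 arrays. The P4 values were about double, a difference of 1.03 ± 0.10 (SE; limma adjusted p 0.00107). Gars encodes the glycyl enzyme and makes both the cytosolic and the mitochondrial form. It went from 885, 832 and 914 to 1772, 1838 and 1682. Its groups lay far apart, with a difference of 0.995 ± 0.075 and the smallest adjusted p of the 35 genes, 0.000586. These increases were the only member calls left with both arrays numbered 2 left out (adjusted p 0.0462 for Aars and 0.0391 for Gars).

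Tars, the threonyl synthetase, had 615, 641 and 617 after oil and 887, 1213 and 1015 after P4. The oil arrays were close together and the P4 arrays spread, with replicate 2 highest (0.71 ± 0.12, adjusted p 0.00780). Nars, the asparaginyl synthetase, was the tightest of the class, at 1613, 1591 and 1625 against 2359, 2442 and 2426 (0.58 ± 0.06, adjusted p 0.00183). Farsb, the beta subunit of the phenylalanyl enzyme, rose from 716, 707 and 776 to 1142, 1002 and 1006 (0.51 ± 0.09, adjusted p 0.00875). Farsa, the alpha subunit of that enzyme, did not pass. It measured 443, 436 and 424 after oil and 525, 592 and 473 after P4, so the groups did not overlap, but its difference of 0.27 ± 0.10 had an adjusted p of 0.112. The call of Farsb was lost (0.139) when probe sets with names ending in _x_at, _s_at or _a_at were left out. These endings mark probe sets that can match more than 1 transcript, of the same gene in the case of _a_at. The probe set then read was dim, with means of 83.6 after oil and 109 after P4 (0.32 ± 0.12). The other unused probe sets of Farsb had 0.49 ± 0.09 and 0.63 ± 0.10.

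For Yars, Cars, Wars and Hars the adjusted p crossed the threshold in some fits that left out 1 array, while the difference stayed positive in each of the 6. Yars, the tyrosyl enzyme, had 408, 437 and 346 after oil and 601, 644 and 509 after P4 (0.54 ± 0.12, adjusted p 0.0252). Cars, the cysteinyl enzyme, had 128, 135 and 132 against 185, 212 and 165 (0.45 ± 0.11, adjusted p 0.0287). Their groups did not overlap, yet both calls were lost in 5 of 6 fits that left out 1 array, with adjusted p up to 0.0869 for Yars and 0.104 for Cars. The differences in those fits were 0.45 to 0.63 for Yars and 0.37 to 0.53 for Cars. Wars, the tryptophanyl enzyme and also an interferon-induced gene, went from 568, 533 and 597 to 754, 730 and 753 (0.39 ± 0.08, adjusted p 0.0157). Hars, the histidyl enzyme, went from 895, 865 and 928 to 1142, 1112 and 1211 (0.36 ± 0.07, adjusted p 0.0177). Wars missed the threshold when either oil replicate 1 or 2 was left out (up to 0.0750). It also missed it without probe sets ending in _x_at, _s_at or _a_at (0.173). Hars missed it in 3 such fits, with oil replicates 1 and 2 and P4 replicate 3 left out in turn (up to 0.0826). With 1 array left out the difference was 0.35 to 0.43 for Wars and 0.33 to 0.39 for Hars. Cars also missed it with the mean of its probe sets (0.0695).

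Vars, the valyl enzyme, and Sars, the seryl enzyme, completed this group and were not called. Vars had 530, 482 and 475 after oil and 594, 689 and 505 after P4, groups that overlapped (0.25 ± 0.12, adjusted p 0.234). Sars had 687, 839 and 715 against 700, 876 and 727, nearly the same values in both groups (0.04 ± 0.12, adjusted p 0.896).

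Of the 7 cytosolic genes whose enzymes sit in the multisynthetase complex 2 rose, Iars and Mars1, beside 6.08% of all genes. The median difference was 0.37. With the replicate block 4 were higher, beside 9.29% of all genes. Iars, the isoleucyl enzyme, had 922, 868 and 1004 after oil and 1414, 1846 and 1676 after P4, well separated (0.80 ± 0.11, adjusted p 0.00425). Mars1, the methionyl enzyme that also charges the initiator transfer RNA, had 452, 433 and 435 against 652, 759 and 660 (0.63 ± 0.09, adjusted p 0.00425). Both were called in each fit that left out 1 array.

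Rars and Eprs lay between called and not called. Rars, the arginyl enzyme, had 747, 720 and 811 after oil and 860, 980 and 1127 after P4 (0.37 ± 0.11, adjusted p 0.0674, and 0.0185 with the replicate block). Eprs, which joins the glutamyl and prolyl enzymes in a single protein, had 1055, 933 and 1034 against 1173, 1657 and 1294 (0.43 ± 0.13, adjusted p 0.0688, and 0.0476 with the block). In both genes all P4 arrays exceeded all oil arrays, and the spread among P4 arrays was the larger. Eprs passed without the block when its probe sets were averaged (0.0227).

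Lars, Kars and Qars were not called. Lars, the leucyl enzyme, also known as a leucine sensor, had 764, 731 and 815 after oil and 749, 933 and 985 after P4 (0.20 ± 0.11, adjusted p 0.334). Kars, whose gene makes both the cytosolic and the mitochondrial lysyl enzyme, had 762, 815 and 828 against 723, 955 and 919 (0.10 ± 0.11, adjusted p 0.669). In both P4 replicate 1 lay within or below the oil values. Qars, the glutaminyl enzyme, was the 1 cytosolic gene with a negative difference. It measured 1211, 1304 and 1429 after oil and 1041, 1000 and 1217 after P4, groups that overlapped (-0.27 ± 0.10, adjusted p 0.127). With the replicate block its adjusted p was 0.0341. The other 3 probe sets of Qars also had negative differences, from -0.19 to -0.25. The counts in and outside the complex were not tested against each other, and this grouping was made with the values known.

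Mars2, the mitochondrial methionyl synthetase, was the single call of its class. It was dim, at 45.2, 54.9 and 43.1 after oil and 88.7, 80.5 and 73.5 after P4, and all P4 arrays exceeded all oil arrays. The difference of 0.61 ± 0.11 had an adjusted p of 0.0107. It was called in each fit that left out 1 array, but it is among the dimmest 30% of genes, and a second probe set of Mars2 had a difference of 0.21 ± 0.11. Yars2, the tyrosyl enzyme, had 103, 120 and 126 against 129, 200 and 193 (0.50 ± 0.16, adjusted p 0.0869, and 0.0119 with the block). Its P4 replicate 1 lay just above the oil values and the others well above, and its other probe set had a difference of 0.70 ± 0.16. Without P4 replicate 1 the adjusted p of Yars2 was 0.0116. It also passed with averaged probe sets (0.0390), array weights (0.0441) and scaling to hybridisation controls (0.0498).

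The lowest differences of the mitochondrial class were those of Fars2, Cars2 and Iars2. Fars2, the phenylalanyl enzyme, had 292, 299 and 271 after oil and 193, 257 and 213 after P4 (-0.36 ± 0.11, adjusted p 0.0785, and 0.0317 with the block). Cars2, the cysteinyl enzyme, had 318, 296 and 305 against 248, 272 and 237 (-0.27 ± 0.09, adjusted p 0.0886). Iars2, the isoleucyl enzyme, had 564, 564 and 547 against 440, 472 and 491 (-0.25 ± 0.08, adjusted p 0.0788). In these 3 genes all P4 arrays lay below all oil arrays, and none passed without the block over all arrays.

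Positive differences that did not pass were seen in 6 further mitochondrial genes. Nars2 had a difference of 0.24 ± 0.09 (adjusted p 0.134) and Ears2 of 0.16 ± 0.09 (0.354), both without overlap of the groups. Ears2 charges glutamate onto the transfer RNA for glutamine too, which an amidotransferase then converts. Averaged over its probe sets, Ears2 was called (adjusted p 0.0348). Lars2 (0.15 ± 0.12), Rars2 (0.14 ± 0.09), Wars2 (0.01 ± 0.09) and Aars2 (0.00 ± 0.08) had overlapping groups. Aars2 measured 172, 161 and 181 after oil and 171, 168 and 174 after P4, which shows no separation on any array. The remaining 5 genes, Pars2 (-0.14 ± 0.10), Vars2 (-0.13 ± 0.11), Tars2 (-0.07 ± 0.08), Hars2 (-0.06 ± 0.10) and Sars2 (-0.05 ± 0.15), overlapped between groups as well. Standard errors of the 15 genes not called ran from 0.08 to 0.16 log2, so a missed threshold does not show that a transcript was the same in both groups.

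Class against class, the mean of the 19 cytosolic genes separated the groups and that of the 16 mitochondrial genes did not. The cytosolic mean log2 value was 9.38, 9.37 and 9.40 on the oil arrays and 9.75, 9.93 and 9.81 on the P4 arrays, a difference of 0.44 ± 0.05 (SE). Every P4 array lay above every oil array, and P4 replicate 2 was highest. The mitochondrial mean was 7.79, 7.78 and 7.82 after oil and 7.80, 7.86 and 7.82 after P4, with overlap (0.03 ± 0.02). Cytosolic minus mitochondrial, the values were 1.59, 1.60 and 1.58 after oil and 1.95, 2.07 and 1.99 after P4. The change in that distance was 0.41 ± 0.03, and between arrays of the same number it was 0.36, 0.47 and 0.41. The mean of all genes changed by -0.01 ± 0.03. The class difference was 0.38 without both arrays numbered 2 and 0.42 with scaling to hybridisation controls; no p is given for a mean over chosen genes.

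**Figure D2:**
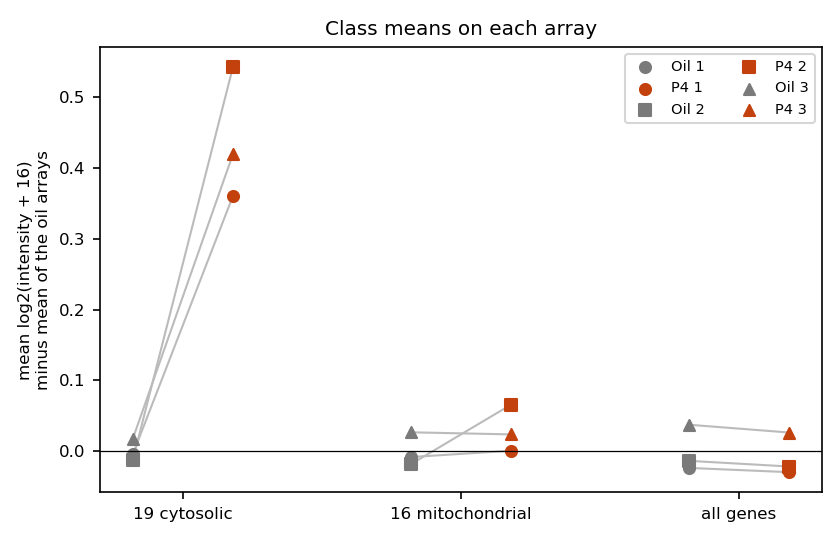
The vertical axis gives the mean log2(intensity + 16) of a class on each array minus the mean of its oil arrays; grey is oil, orange is P4, and lines join arrays of the same replicate number. Cytosolic means differ by 0.365, 0.554 and 0.402 along the 3 lines, mitochondrial means by 0.009, 0.084 and -0.004, and the mean of all genes by -0.006, -0.008 and -0.011.

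The same amino acid could be followed in both compartments through 17 cytosolic and mitochondrial combinations, with Eprs and Fars2 each used in a pair of them. The cytosolic gene had the higher difference in 17 of 17, and in 15 to 16 with 1 array left out. The count was also 16 with averaged probe sets and with array weights. With 1 added to the intensities in place of 16 it was 16, and Mars2 then changed more (0.75) than Mars1 (0.65). In 12 of the 17 combinations the log2 ratio of the cytosolic to the mitochondrial gene was higher on all P4 arrays than on all oil arrays. In 0 it was lower, and in 5 the groups overlapped. The widest gap was in isoleucine: the Iars to Iars2 ratio was 0.69, 0.61 and 0.86 after oil and 1.65, 1.93 and 1.74 after P4, a change of 1.05 ± 0.11. Alanine followed, with ratios of 1.25, 1.32 and 1.04 against 2.13, 2.42 and 2.14 for Aars to Aars2 (1.03 ± 0.13). Farsb to Fars2 changed by 0.87 ± 0.18, Tars to Tars2 by 0.78 ± 0.17 and Cars to Cars2 by 0.72 ± 0.07. In each of these the cytosolic gene was called and the mitochondrial gene was not.

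For methionine and tyrosine the ratio was close to even between groups, with overlap and wide errors. The Mars1 to Mars2 ratio changed by 0.02 ± 0.13 and that of Yars to Yars2 by 0.04 ± 0.27. Leucine (0.04 ± 0.10), serine (0.09 ± 0.21) and arginine (0.23 ± 0.12) also had overlapping ratios. Histidine is of interest for the place of its genes, as Hars and Hars2 are neighbours in the RefSeq gene table: their ratio changed by 0.42 ± 0.12, from 1.01, 1.15 and 1.13 to 1.39, 1.43 and 1.74. An exact two-sided permutation test of each ratio over the 6 arrays gave p = 0.1 for the 12 combinations without overlap, the smallest value that 3 against 3 arrays allow, and 0.142 after Benjamini-Hochberg adjustment over the 17. This unpaired test therefore cannot pass a threshold of 0.05 for a single ratio with so few arrays.

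**Figure D3:**
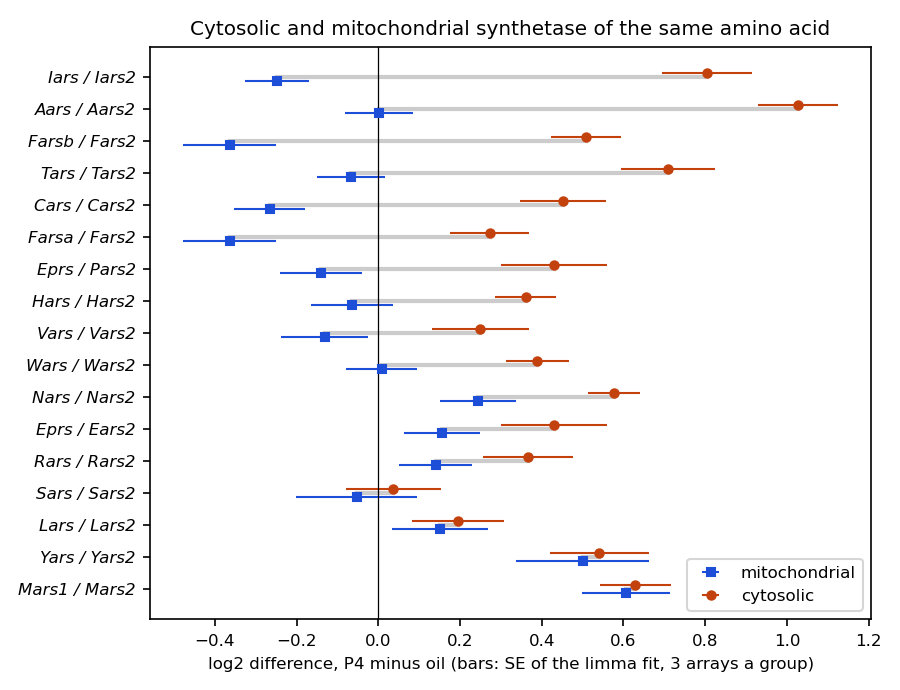
The horizontal axis gives the log2 difference, P4 minus oil; orange circles are cytosolic and blue squares mitochondrial genes of the same amino acid, bars are standard errors, and grey bands join them, ordered by the gap. The gap is 1.05 for Iars and Iars2 at the top and 0.02 for Mars1 and Mars2 at the bottom.

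Partners of the cytosolic enzymes were mixed. Of 5 measured scaffold proteins of the multisynthetase complex and subunits of its elongation factor partner, 2 rose and 0 fell, with a median of 0.01. Over all genes 6.08% were called higher and 6.94% lower. Eef1e1, a small scaffold protein of the complex, rose from 661, 620 and 729 to 1295, 1320 and 1495 (1.02 ± 0.09, limma adjusted p 0.000981), and Aimp2, another scaffold, by 0.61 ± 0.09 (0.00614). Aimp1, the third scaffold protein, named after its value was seen, had -0.13 ± 0.09 (0.472). Among 7 helpers of editing and charging 2 rose and 0 fell, beside the same shares of all genes. These were Sephs2, which makes selenophosphate for selenocysteine (0.47 ± 0.08), and Aarsd1, an editing protein for alanyl transfer RNA (0.32 ± 0.08). The count was 1 in each of the 6 fits that left out 1 array.

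Of 19 measured genes of transfer RNA end processing and export 3 rose and 0 fell, with a median of 0.12, where 6.08% of all genes were called higher. With the replicate block 5 were higher and 2 lower, beside 9.29% and 11.6% of all genes, so the lower count was near the share over all genes. Pop7, a protein of ribonuclease P, rose by 0.63 ± 0.08, Elac2, which trims the 3′ end, by 0.41 ± 0.08, and Pop5, also of ribonuclease P, by 0.35 ± 0.09. The list count was 1 without oil replicate 2. Of 17 measured genes listed as mitochondrial translation factors and amidation genes, 2 rose and 0 fell, with a median of 0.01. The list was meant for genes that work beside the mitochondrial synthetases, but its 17 include Pth2 (-0.01 ± 0.10, not called). That is the mouse symbol of parathyroid hormone 2, which has no place in mitochondrial translation. The counts and the median are those of the list with Pth2 in it. With the replicate block 3 were higher and 1 lower, Guf1 (-0.45 ± 0.13, adjusted p 0.0534, and 0.00888 with the block), a mitochondrial translation factor named after its value was seen. A lower count of 1 was also found with robust eBayes, array weights, the granulocyte covariate and without the dimmest 30% of genes. Qrsl1, a subunit of the amidotransferase that completes glutaminyl transfer RNA in mitochondria, rose by 0.49 ± 0.09 (adjusted p 0.0130). Gfm1, a mitochondrial elongation factor, rose by 0.43 ± 0.11 (0.0420). That count was 0 without oil replicate 2 or P4 replicate 2, and 1 without oil replicate 1 or P4 replicate 3. It was also 0 without probe sets ending in _x_at, _s_at or _a_at.

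The amino acid response list, to which ATF4 and many of its targets belong, had 9 of 30 measured genes higher and 0 lower. Its median was 0.15, and over all genes 6.08% were called higher and 6.94% lower. With the replicate block 12 were higher and 0 lower, beside 9.29% and 11.6% of all genes. Mthfd2, a mitochondrial folate enzyme, had the largest difference of the list (2.67 ± 0.19, adjusted p 0.000550). Cth, which makes cysteine, went from 224, 174 and 235 to 777, 632 and 560 (1.57 ± 0.15). Asns, which makes asparagine and also holds the core TGATGNAA in its promoter, as TGATGAAA at -23, rose by 1.41 ± 0.11. Atf4 itself went from 1155, 1157 and 1203 to 2036, 2073 and 1967, without overlap (0.78 ± 0.07, adjusted p 0.000761). The remaining calls of the list were Phgdh (1.20 ± 0.18), Slc7a1 (0.80 ± 0.08), Aldh18a1 (0.79 ± 0.14), Shmt2 (0.64 ± 0.11) and Sesn2 (0.43 ± 0.11). Some textbook targets in the list were not called: Ddit3 had -0.23 ± 0.15 (0.404), Trib3 -0.10 ± 0.18 (0.811) and Chac1 -0.08 ± 0.11 (0.740). The most negative differences were those of Slc7a11 (-0.47 ± 0.21, adjusted p 0.207) and Nupr1 (-0.40 ± 0.25, 0.374), while 23 of the 30 genes had positive ones. Atf4, the remaining calls, Ddit3, Trib3, Chac1, Slc7a11 and Nupr1 were named after their values were seen. Without both arrays numbered 2 the list had 5 calls. It had 1 lower without P4 replicate 3, and also 1 lower with the granulocyte covariate.

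**Figure D4:**
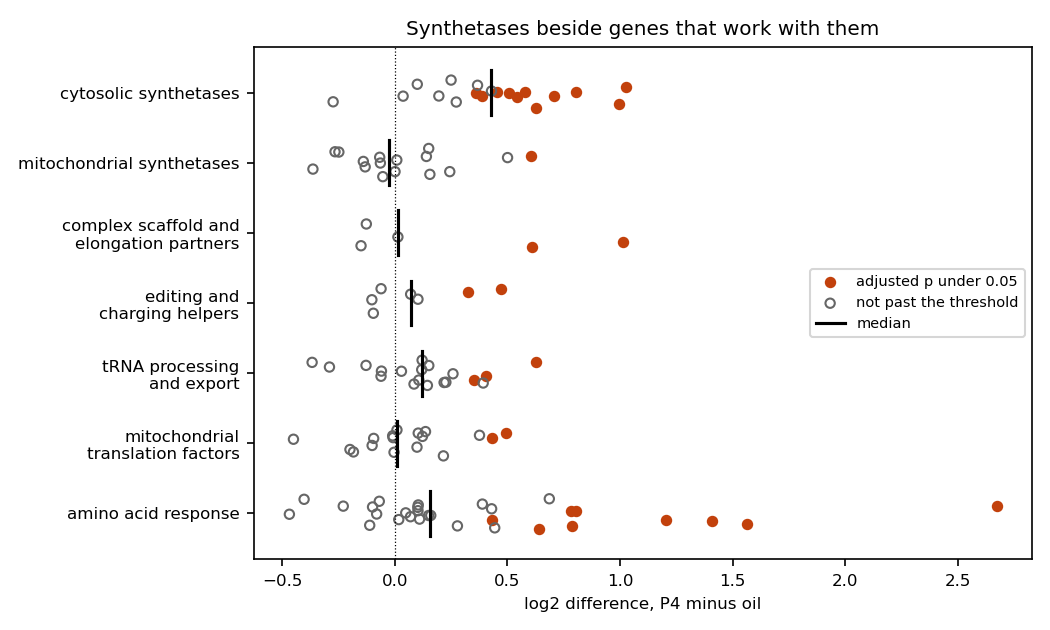
Each circle is a gene, placed by its log2 difference, P4 minus oil; filled circles have an adjusted p under 0.05, open ones do not, and black bars are medians (vertical scatter carries no meaning). The cytosolic synthetases have a median of 0.43, beside -0.03 for mitochondrial synthetases and 0.15 for the amino acid response list. The row of mitochondrial translation factors, which includes Pth2, has a median of 0.01.

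Most genes could be read from more than 1 probe set. The 35 genes had 72 probe sets, and 12 genes had a single one. Of the 37 probe sets not used, 5 had the opposite sign to the used one, and in 1 of these, for Wars2, the unadjusted limma p was under 0.05 (-0.23 ± 0.10). Among those not used, Aars (0.89 ± 0.15), Iars (0.72 ± 0.13), Nars (0.55 ± 0.09) and Hars (0.43 ± 0.10) were positive again. The unused probe set of Cars had 0.03 ± 0.10, and those of Wars had 0.47 ± 0.09, 0.20 ± 0.09 and -0.02 ± 0.09. Of the 11 cytosolic calls, 7 held in each of the 6 fits that left out 1 array, namely Aars, Farsb, Gars, Iars, Mars1, Nars and Tars. The count of cytosolic calls fell to 7 without oil replicate 1 and to 7 without oil replicate 2.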

How the data were processed

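RNA from uterine horns was hybridised as biotinylated cRNA, per the labels' protocols. The authors deposited 1 linear intensity for each probe set and array; their summarisation and scaling are not given in the sources used here. Of 45101 probe sets 64 are controls, 34945 had 1 gene symbol in the platform annotation, 932 several and 9160 none; only the first entered the tests. The log2 of the deposited intensity plus 16 was taken, and arrays were not normalized again. P4 was compared with oil in limma 3.58.1 (R 4.3.3; lmFit, eBayes with trend) over 18193 genes, without covariates; the fit was tested on simulated data. With 3 arrays a group, their number limits the precision. As a check of pairing, the deviation of each array from its group mean was correlated over genes: oil and P4 arrays sharing a number gave 0.53, 0.13 and 0.64, each over 0.1. The labels give no meaning to the number. All calls are from the unpaired fit unless the replicate block is named, and the block is an alternative, given where it changes a call. Oil replicate 2 correlated more with another P4 array (0.29). All 35 members are named, and from each other list up to 3 called increases and 2 called decreases, or the 2 brightest genes where none was called. Alternatives covered the pseudocount, scaling, probe set choice, dim genes, eBayes options, array weights, the block and each array left out. Members and lists were chosen with earlier results of these data known. Promoters came from RefSeq (GRCm38.p6). Figures used matplotlib 3.10.9.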

Additional observations from a re-analysis of the deposited data

How the results depend on the processing

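In 20 alternatives the cytosolic mean stayed above 0 (0.38 to 0.57) and so did its distance from the mitochondrial mean (0.37 to 0.45). Over members, 648 of 695 values kept their side of the threshold, 28 lost a call and 19 gained one. The sign changed in 0 values where the gene was called in either fit. Among genes not called it changed in 5 alternatives for Aars2, 4 each for Sars2 and Wars2, 2 each for Sars and Hars2, and 1 for Tars2. With 1 array left out, calls over all genes ran from 485 to 1075 higher and from 508 to 1227 lower, cytosolic increases from 7 to 11, mitochondrial increases from 1 to 2 and decreases from 0 to 1. The replicate block gave 1690 higher and 2111 lower over all genes, 1 cytosolic decrease, 2 mitochondrial increases and 1 decrease; it changed the calls of Eprs, Rars, Qars, Yars2 and Fars2 and of no other member. Scaling to hybridisation controls gave 1838 higher and 628 lower, class means of 0.57 and 0.15 and 2 mitochondrial increases. Mitochondrial increases were also 3 with the mean of all probe sets (Mars2, Ears2 and Yars2) and 2 with array weights (Mars2 and Yars2). They were 0 without the dimmest 30% of genes, which leaves out Mars2. The mitochondrial mean was 0.0695 with median centring and -0.0088 without the dimmest 30%. Leaving out both arrays numbered 2, chosen after seeing the data, left 99 higher and 72 lower, 2 cytosolic increases and 0 mitochondrial ones, with 4 arrays in the fit. The cause of the other changes was not tested. The granulocyte covariate was also chosen after seeing the data.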

Other observations

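Ears2, the mitochondrial glutamyl synthetase, had 4 probe sets, all with a positive difference. The one used had 0.16 ± 0.09, and the others had 0.40 ± 0.09, 0.30 ± 0.10 and 0.27 ± 0.10. Eprs had 4 as well, with 0.63 ± 0.09, 0.46 ± 0.10 and 0.25 ± 0.12 on other probe sets beside 0.43 ± 0.13 on the one used.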
